A study of Mus musculus with 12 samples.

Results

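The nucleic acid sensors and adaptors are the proteins with which a cell detects RNA or DNA in its cytosol and endosomes, and 10 of their genes were followed here. They were picked by name from the 49671 genes of the count table, by a rule that uses no measured value, though results of these data were already known, and all 10 passed the filter on low counts. They are the RNA helicase sensors Ddx58 (RIG-I), Ifih1 (MDA5) and Dhx58 (LGP2), the endosomal RNA receptor Tlr3, the Z-form nucleic acid sensor Zbp1, the RNA-activated kinase Eif2ak2 (PKR), the DNA sensor Mb21d1 (cGAS), its adaptor Tmem173 (STING), the mitochondrial adaptor Mavs and the transcription factor Irf3. Their levels were measured by sequencing of polyA-selected RNA in ImPSC-1, a mouse line that the labels describe as pancreatic mesenchymal cells and the study calls stellate cells. The study asked what Kitl, the ligand of the receptor KIT, does within these cells, and used 4 stable derivatives with 3 libraries each. The shCtrl cells, labelled wild type, carried a control described as PLKO-1, and the shKitl cells a hairpin against Kitl described as sh2KitL. The Egfp_OE cells overexpressed Egfp and the Kitl_OE cells overexpressed Kitl. All 4 share the ImPSC-1 background, and the labels give neither the promoter of the transgenes, nor the number of clones, nor whether replicates were grown as separate cultures. P-values therefore measure the spread between these libraries, which may be technical. Each library also carries a P number of unstated meaning, from 13 to 16 in the hairpin lines and from 17 to 20 in the overexpression lines.

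RIG-I and MDA5 bind foreign or misplaced RNA in the cytosol and signal through MAVS on the mitochondrial membrane, while LGP2 tunes their activity. cGAS binds DNA in the cytosol and makes a cyclic dinucleotide that activates STING, and TLR3 reads double-stranded RNA from within endosomes. These routes meet at the kinase TBK1 and at IRF3, which switches on interferon beta. Secreted interferon then acts through its receptor on a set of interferon-stimulated genes, to which many of the sensors themselves belong.

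The interferon-stimulated response element is the DNA word through which interferon acts on such genes, so its core, which is GAAA and after any 2 bases GAAA again, was looked for in the RefSeq promoter windows of GRCm38.p6, which run from 250 bases before to 50 bases after a gene's start. Windows were given for 7 of the 10 genes, not for Dhx58, Zbp1 and Tmem173. On either strand, 3 of the 7 windows held the core, those of Ddx58, Ifih1 and Eif2ak2, against 3.44% of all 32851 windows. Those of Tlr3, Mavs, Mb21d1 and Irf3 did not, and Tlr3 shared the pattern of levels across the libraries, given below, that the 3 genes had. A second word searched, TTCNNNGAA, which reads the same on both strands, was in 1 of the 7 windows, that of Eif2ak2, against 8.3% of all windows. The stretches with the first core are shown so that its matches can be seen. Capitals mark the match, and each stretch is written 5′ to 3′ on the strand of its gene, which is the minus strand in each case.
Ddx58 at chr4:40239804-40239833: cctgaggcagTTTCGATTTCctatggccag
Ifih1 at chr2:62646206-62646235: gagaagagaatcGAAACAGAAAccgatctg
Eif2ak2 at chr17:78882535-78882564: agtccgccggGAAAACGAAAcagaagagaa
Positions are counted with the RefSeq start as the first base. In Ddx58 the core lies on the strand opposite to the gene and begins at base 3. In Eif2ak2 it begins at base 19, and in both genes GENCODE M21 annotates the place as an untranslated exon. In Ifih1 it begins at base 33, in an exon.
These matches describe letters only, and binding was not measured.

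Each library held 24979742 to 33517686 counts in genes. Kitl was lower in shKitl, at 27.0 ± 2.88 CPM (counts scaled to a common library size; SD, n = 3), than in shCtrl, at 74.5 ± 1.65, without overlap. Its log2 fold change was -1.46 (edgeR's quasi-likelihood test, adjusted p = 0.121). In Kitl_OE it stood at 122.5 ± 7.32 CPM against 58.8 ± 23.4 in Egfp_OE, a log2 fold change of 1.06 (edgeR, adjusted p = 0.00836). Egfp_OE replicate 2 stood apart: it held 1.35% spike-in counts against 0.446 to 0.684% in the other 11 libraries. Its Kitl level of 31.8 CPM was below the 72.3 and 72.5 CPM of its group. All 11 mesenchymal markers looked for passed the filter, with summed levels of 5099 to 25460 CPM. Lum was near 0 in several libraries, at 0.0336 to 0.441 CPM in Egfp_OE against 3.04 to 13.3 CPM in Kitl_OE. Of the 11, 6 were called higher and 2 lower in Kitl_OE than in Egfp_OE, against 15.4% and 18.9% of all genes. Of 12 leukocyte markers 4 passed the filter, their list summed to 20.98 to 42.8 CPM, and Siglech and Cd3e were at 0 in every library. Of these 4, Csf1r and Lyz2 were called higher in Kitl_OE than in Egfp_OE, Csf1r at 10.8 to 18.6 against 1.24 to 2.58 CPM and Lyz2 at 9.07 to 11.8 against 0.235 to 0.962 CPM. Of 5 endothelial markers 3 passed the filter, with 1 called higher and 1 lower, and Kdr was at 21.3 to 25.6 CPM in Kitl_OE against 3.09 to 4.21 CPM in Egfp_OE. Mesothelial markers differed between lines, with a summed level of 9.83 to 18.6 CPM in Egfp_OE and 62.7 to 98.8 CPM in shCtrl. It was 99.7 to 134.1 CPM in shKitl, and 153.3 to 257 CPM in Kitl_OE. Against Egfp_OE, all 3 mesothelial markers that passed the filter were called higher in Kitl_OE, with a median log2 fold change of 7.745. Against shCtrl the markers behind this sum did not move together, with 2 called higher and 1 lower in Kitl_OE. Msln was at 60.2 to 97.8 CPM in shCtrl and at 22.1 to 44.7 CPM in Kitl_OE. Upk3b was at 0.0788 to 1.98 CPM in shCtrl and at 97.4 to 194.3 CPM in Kitl_OE. The part of all these markers in the results was not tested.

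As TPM, a share of transcripts that allows for gene length, the genes covered a range of levels. The median over the 12 libraries was highest for Eif2ak2 at 69.4 TPM and Tmem173 at 60.3 TPM, followed by Ddx58 at 45.9 and Mavs at 39.2 TPM. Irf3 at 26.4, Mb21d1 at 24.8, Ifih1 at 22.0 and Dhx58 at 20.6 TPM formed the middle, and Tlr3 at 11.4 and Zbp1 at 9.22 TPM the lower end. The spread of several genes was much wider than the gaps in this order: Zbp1 ran from 0.535 to 107.1 TPM and Dhx58 from 2.51 to 141.4 TPM, while Mavs kept within 16.95 to 49.4 TPM and Irf3 within 20.8 to 38.5 TPM. The SD of log2 CPM over the 12 libraries placed Zbp1 at percentile 99.8 and Dhx58 at percentile 97.8 of the 15271 genes tested. Tlr3, Ddx58, Ifih1, Mb21d1 and Eif2ak2 lay between percentiles 76.3 and 89.5, and Tmem173 at 37.2, Irf3 at 23.7 and Mavs at 22 were among the steadier genes.

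**Figure D1:**
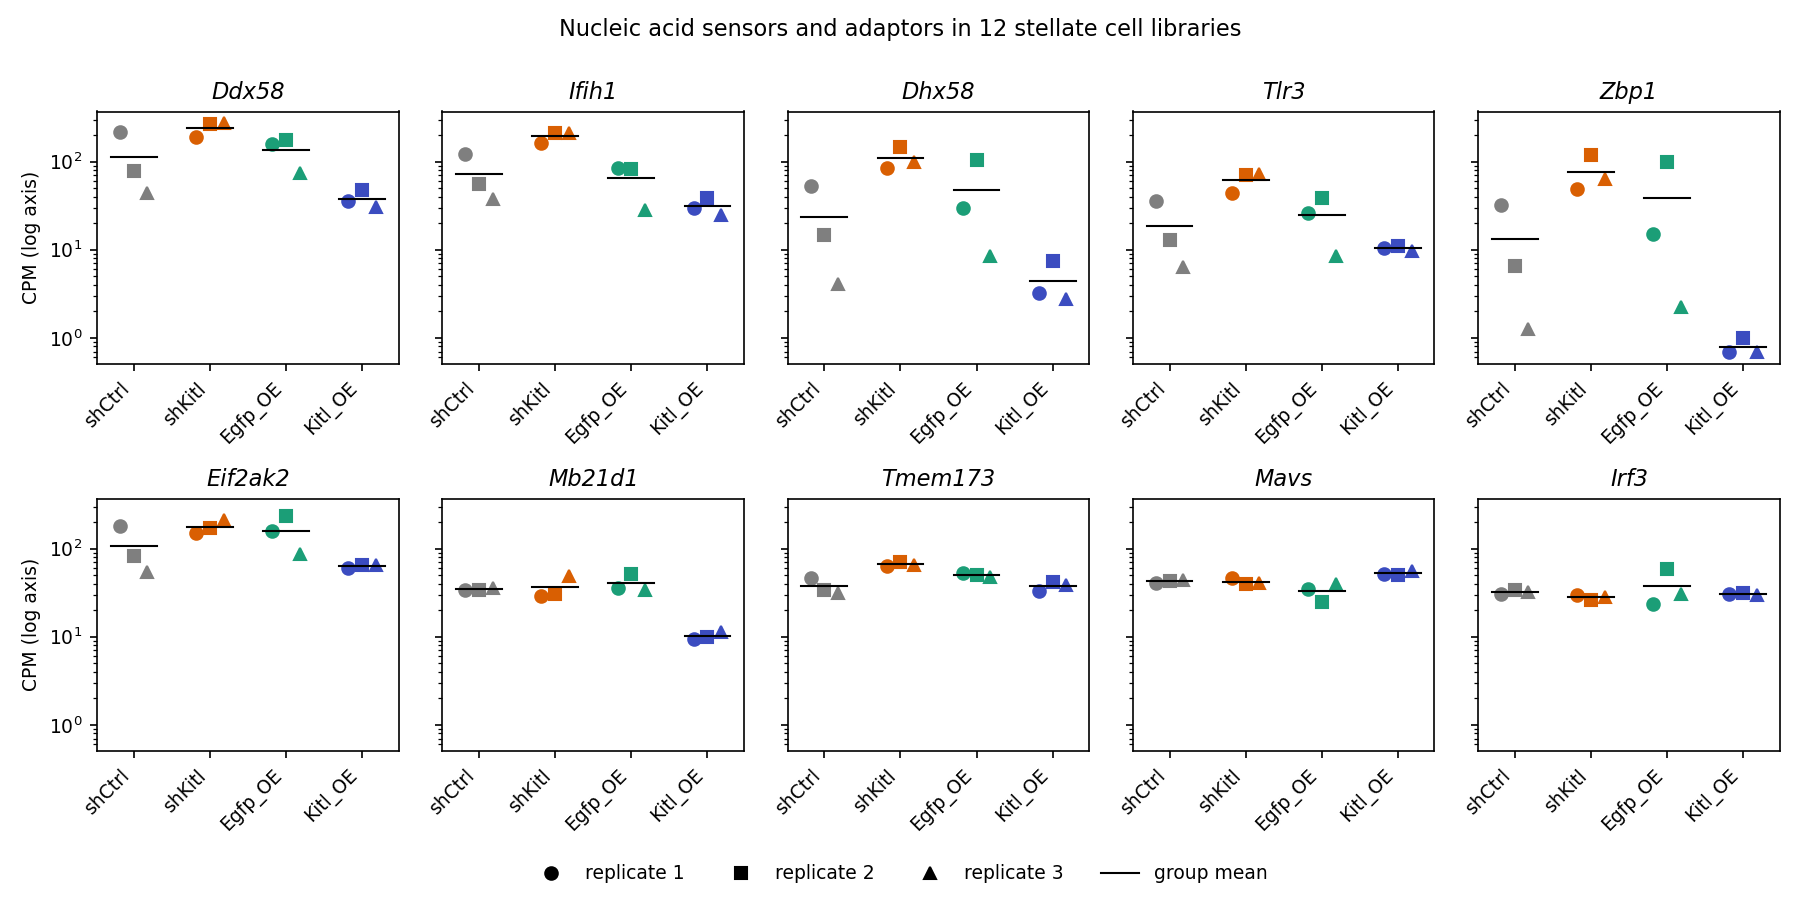
Level of each of the 10 genes in CPM (log axis) in the 12 libraries, by line on the horizontal axis, with a symbol for each replicate and a bar at the mean of each group. Zbp1 runs from 0.683 to 119.5 CPM and differs widely within shCtrl and Egfp_OE, whereas Mb21d1 is at 9.42 to 11.4 CPM in Kitl_OE and at 29.1 CPM or more elsewhere.

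The wide spread arose within the control lines as well as between lines. In shCtrl, Zbp1 differed 25.2-fold between its highest and lowest library, and in Egfp_OE 44.7-fold, but in Kitl_OE only 1.45-fold. Replicate 1 held the highest level of the 3 shCtrl libraries for Ddx58, Ifih1, Dhx58, Zbp1, Tlr3, Tmem173 and Eif2ak2. Of the 3 Egfp_OE libraries, replicate 3 held the lowest level for these same genes. In shCtrl their levels fell from replicate 1 to replicate 3, the order of its P numbers 14 to 16. Among the shKitl libraries, with P numbers 13 to 15, replicate 1 instead held the lowest level for these genes. The part of the P number in this was not tested.

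Both Kitl comparisons were tested for all 15271 genes in 1 edgeR quasi-likelihood model, with p-values adjusted by Benjamini-Hochberg and a threshold of 0.05. Kitl overexpression went with lower levels of 5 of the 10 genes, Ddx58, Dhx58, Zbp1, Eif2ak2 and Mb21d1, and with a higher level of Mavs. Of all genes, 18.9% fell and 15.4% rose in this comparison. The median log2 fold change was -1.28 over the 10 genes and -0.07 over all genes tested. Without Egfp_OE replicate 2, the genes called lower were 3 of the 10, namely Ddx58, Zbp1 and Mb21d1, and Mavs was again called higher. Of the 15622 genes tested in that fit, 3056 fell and 3094 rose. Without Kitl_OE replicate 1 or 3 the number called lower was 2, against 1812 of 15703 and 2061 of 15644 genes. With the P number as a covariate the genes called lower were Zbp1 and Mb21d1, and with only the 4 libraries of P numbers found in both lines Mb21d1 alone. Over all genes 2646 of 15271 fell with the covariate, and 659 of 14533 with those 4 libraries. In bulk RNA, fewer cells expressing a gene and less of its RNA per cell cannot be told apart.

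Ddx58 (chr4:40203773-40239828, minus strand, GRCm38 with GENCODE M21), the sensor RIG-I, was at 158.9, 176.9 and 73.7 CPM in Egfp_OE replicates 1 to 3 and at 35.8, 47.7 and 30.8 CPM in those of Kitl_OE. Every Kitl_OE library was below every Egfp_OE library, and the gene fell by 1.84 on the log2 scale (SE 0.508, edgeR's quasi-likelihood test, adjusted p = 0.0160). Leaving out Kitl_OE replicate 1 or 3 ended the call, with an adjusted p of 0.0589 and 0.0620. Dhx58 (chr11:100694884-100704271, minus strand), whose product LGP2 regulates the other helicases, was at 29.6, 105.2 and 8.56 CPM in Egfp_OE and at 3.23, 7.40 and 2.73 CPM in Kitl_OE. The groups did not overlap, though Egfp_OE replicate 3 came close to Kitl_OE replicate 2, and the gene fell by 3.42 (SE 0.974, edgeR, adjusted p = 0.0185). This call ended without Egfp_OE replicate 2, at -2.09 with an adjusted p of 0.0888, and without Kitl_OE replicate 1 or 3, with an adjusted p of 0.0714 and 0.0688. Dhx58 overlaps the gene Dhx58os, which had 0.341 to 11.6 CPM, and as the strand setting of the counting is not given, their reads cannot be told apart.

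Ifih1 (chr2:62595798-62646255, minus strand), the sensor MDA5, did not pass in this comparison. It was at 84.8, 82.4 and 28.0 CPM in Egfp_OE and at 29.5, 39.1 and 24.8 CPM in Kitl_OE, so that Egfp_OE replicate 3 lay inside the range of Kitl_OE. The log2 fold change was -1.07 (SE 0.456, edgeR, adjusted p = 0.0909). Without Egfp_OE replicate 3 it was -1.42, and without shCtrl replicate 1, which enters the shared estimate of the spread, it was -1.06. Both passed the threshold in edgeR, with an adjusted p of 0.0223 and 0.0457.

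Zbp1 (chr2:173206612-173218923, minus strand), which detects Z-form RNA and DNA and can start necroptosis, had the widest difference of the 10. It was at 14.9, 98.9 and 2.22 CPM in Egfp_OE and at 0.700, 0.989 and 0.683 CPM in Kitl_OE. Each Kitl_OE library was below all others of the study, and the gene fell by 5.60 (SE 1.41, edgeR, adjusted p = 0.0105). The size rests much on Egfp_OE replicate 2, without which the gene fell by 3.42 (edgeR, adjusted p = 0.0456). With limma-voom in place of edgeR the call ended, at an adjusted p of 0.108. Tlr3 (chr8:45395665-45411080, minus strand) was at 26.2, 39.0 and 8.56 CPM in Egfp_OE and at 10.6, 10.9 and 9.73 CPM in Kitl_OE, again with Egfp_OE replicate 3 low. Its log2 fold change of -1.24 (SE 0.588) did not pass (edgeR, adjusted p = 0.124), but did without that library, at -1.64 with an adjusted p of 0.0402.

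Eif2ak2 (chr17:78852564-78882573, minus strand), whose product PKR halts translation when it binds double-stranded RNA, was at 159.5, 233.5 and 86.4 CPM in Egfp_OE. In Kitl_OE it was at 60.4, 65.1 and 65.7 CPM, close together and below every Egfp_OE library. It fell by 1.33 (SE 0.417, edgeR, adjusted p = 0.0291). The call ended when Egfp_OE replicate 1 or 2 or any 1 Kitl_OE library was left out, with an adjusted p from 0.0539 to 0.107, and without Egfp_OE replicate 2 the log2 fold change was -0.93.

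Mb21d1 (chr9:78430526-78443237, minus strand), the gene of cGAS, was low in a single line. It was at 36.1, 50.9 and 33.6 CPM in Egfp_OE and at 9.42, 10.0 and 11.4 CPM in Kitl_OE. The libraries of shCtrl were at 34.1, 33.5 and 35.9 CPM, and those of shKitl at 29.1, 30.5 and 49.1 CPM. Only the Kitl_OE libraries were low, and the 3 other lines overlapped. Against Egfp_OE the gene fell by 1.97 (SE 0.230, edgeR, adjusted p = 0.000107), which is 3.90-fold. It passed the threshold in all 26 alternative analyses of this comparison, with log2 fold changes from -2.13 to -1.75.

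Tmem173, the gene of STING to which cGAS signals, was at 52.5, 49.8 and 47.6 CPM in Egfp_OE and at 33.4, 41.7 and 39.0 CPM in Kitl_OE. The groups did not overlap, as was so for 25.6% of all genes in this direction. The log2 fold change of -0.39 (SE 0.166) did not pass (edgeR, adjusted p = 0.0860). Mavs (chr2:131234063-131248025, plus strand), the adaptor of RIG-I and MDA5, was the exception in direction, at 34.7, 24.9 and 40.0 CPM in Egfp_OE and 51.9, 50.3 and 55.0 CPM in Kitl_OE. It rose by 0.66 (SE 0.172, edgeR, adjusted p = 0.0122), with no overlap, as was so for 24.9% of all genes in this direction. The call ended when libraries were scaled by their spike-in totals, with an adjusted p of 0.385, and when only the 6 libraries of both lines were fitted, with an adjusted p of 0.0559.

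Irf3 (chr7:44997648-45002848, plus strand) was at 23.7, 58.2 and 30.8 CPM in Egfp_OE and at 30.9, 31.6 and 29.8 CPM in Kitl_OE. Kitl_OE lay within the range of Egfp_OE, and the log2 fold change was -0.29 (SE 0.260, edgeR, adjusted p = 0.422), or 0.19 without Egfp_OE replicate 2. Irf3 overlaps Bcl2l12, which had 5.21 to 19.6 CPM, so that their reads cannot be told apart either.

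**Figure D2:**
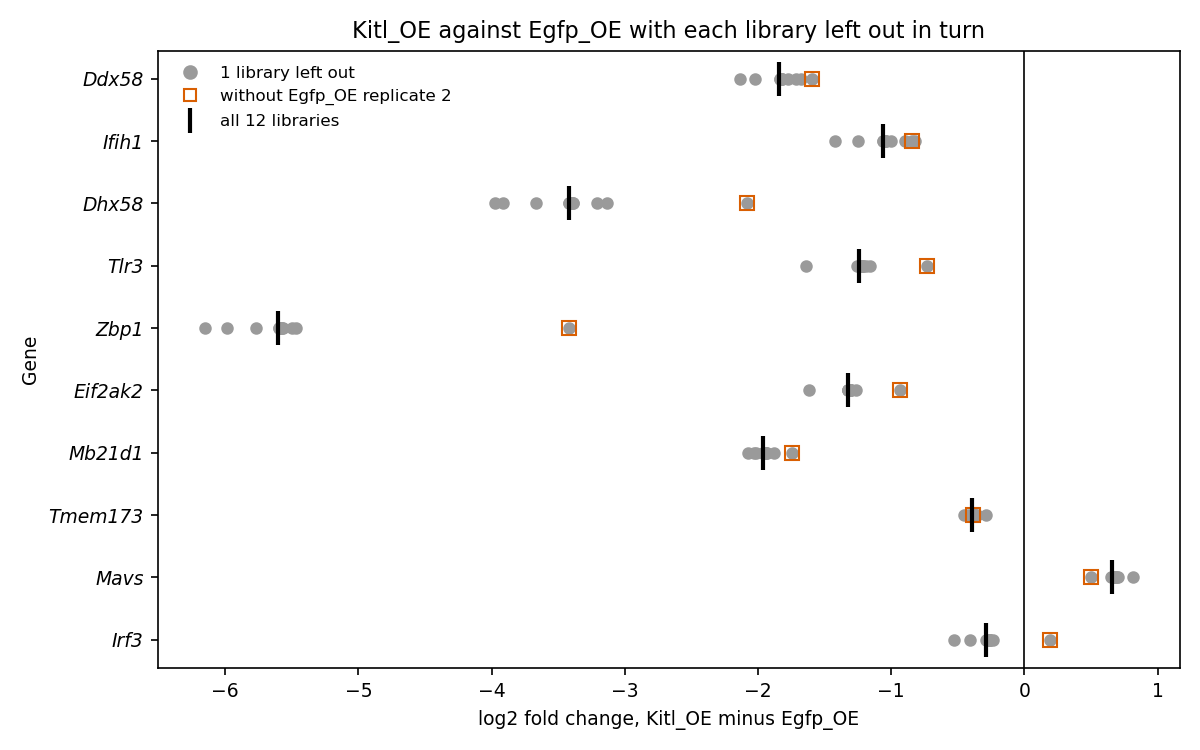
log2 fold change of Kitl_OE against Egfp_OE (horizontal axis) for each gene (vertical axis) with all 12 libraries, as a bar, and with 1 library left out, as points, the open square being the value without Egfp_OE replicate 2. Without it Zbp1 moves from -5.60 to -3.42 and Dhx58 from -3.42 to -2.09, while Mb21d1 stays between -2.07 and -1.75.

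With Kitl knocked down, none of the 10 genes passed the test, nor did any of the 15271 (0% called by edgeR in either direction). The 0 over all genes depended on the libraries kept, since edgeR called 226 genes higher and 51 lower without shKitl replicate 3, 65 and 17 without shCtrl replicate 1, and 34 and 47 without Egfp_OE replicate 2. None of the 10 was among them in the first case, and Tmem173 alone was in the other two. Of the 10 genes 8 had positive log2 fold changes, and the median was 0.96 against 0.05 over all genes. At an unadjusted p under 0.05 there were 5 genes, Ddx58, Ifih1, Dhx58, Tlr3 and Tmem173, all higher, as were 11.1% of all genes at that threshold. DESeq2 called 314 genes higher (2.05%) and 114 lower (0.745%), among them Tmem173 as the only one of the 10. The shKitl libraries were above every shCtrl library for Ifih1, Dhx58, Zbp1, Tlr3 and Tmem173, as were those of 11% of all genes, and below it for Irf3, as were those of 8.64%.

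Ifih1 was at 122.9, 55.8 and 37.2 CPM in shCtrl and at 161.3, 211.4 and 210.7 CPM in shKitl. Its log2 fold change was 1.43 (SE 0.458, edgeR, adjusted p = 0.230). Tlr3 was at 35.8, 13.01 and 6.32 CPM in shCtrl and at 44.3, 71.2 and 71.7 CPM in shKitl, a log2 fold change of 1.76 (SE 0.591, edgeR, adjusted p = 0.235). In both genes shCtrl replicate 1 was the library nearest to shKitl.

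Dhx58 was at 52.4, 14.8 and 4.11 CPM in shCtrl and at 84.7, 146.3 and 98.1 CPM in shKitl, a log2 fold change of 2.20 (SE 0.912, edgeR, adjusted p = 0.288). Zbp1 was at 32.1, 6.54 and 1.27 CPM in shCtrl and at 48.3, 119.5 and 63.0 CPM in shKitl, a log2 fold change of 2.53 (SE 1.17, edgeR, adjusted p = 0.321). These 2 genes had the largest fold changes of the 10 and also the largest standard errors.

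Tmem173 was steadier, at 46.5, 34.3 and 31.5 CPM in shCtrl and 63.3, 70.8 and 64.3 CPM in shKitl. Its log2 fold change of 0.82 (SE 0.167) had an adjusted p of 0.134 in edgeR and of 0.00263 in DESeq2. In edgeR it passed without shCtrl replicate 1, at 1.00 with an adjusted p of 0.0498, and without Egfp_OE replicate 2, at 0.79 with an adjusted p of 0.0489.

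Ddx58 was at 218, 78.5 and 43.7 CPM in shCtrl and at 190.2, 266.6 and 274.3 CPM in shKitl, where shCtrl replicate 1 exceeded shKitl replicate 1. Its log2 fold change was 1.10 (SE 0.496, edgeR, adjusted p = 0.311). Eif2ak2 had the same overlap, at 182.2, 81.9 and 54.3 CPM in shCtrl and 151.6, 173.5 and 208.4 CPM in shKitl, a log2 fold change of 0.74 (SE 0.412, edgeR, adjusted p = 0.386). Without shCtrl replicate 1 the log2 fold change was 1.99 for Ddx58, 1.38 for Eif2ak2, 3.53 for Dhx58 and 4.29 for Zbp1, with adjusted p-values in edgeR from 0.0558 to 0.0979. Mb21d1, at 0.07 on the log2 scale, Mavs, at -0.01, and Irf3, at -0.19, had the smallest fold changes (edgeR, adjusted p = 0.906, 0.977 and 0.743).

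**Figure D3:**
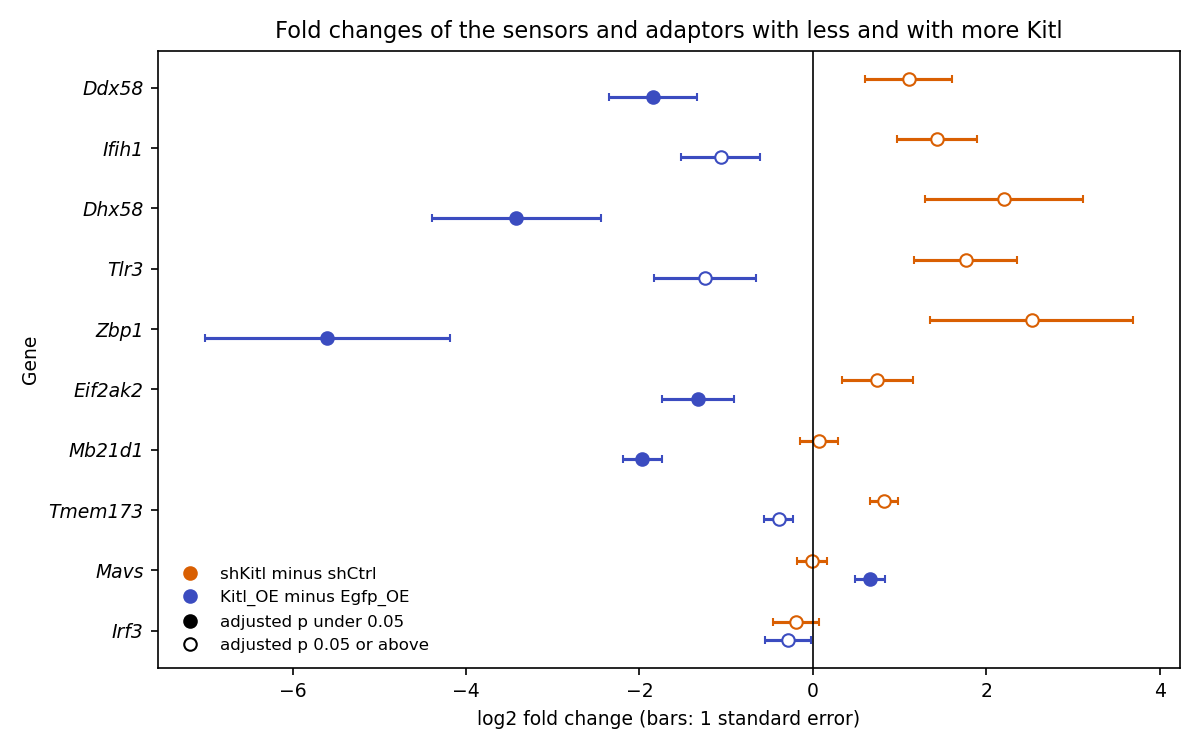
log2 fold change of each gene (vertical axis) in shKitl against shCtrl and in Kitl_OE against Egfp_OE, with bars of 1 standard error, and filled points for an adjusted p under 0.05. The 6 filled points all belong to Kitl_OE against Egfp_OE, from Zbp1 at -5.60 to Mavs at 0.66.

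The difference between the 2 comparisons, which share no library, was tested itself. They change Kitl in opposite directions, and overexpression minus knockdown was 2.52 for Kitl (SE 0.363, edgeR, adjusted p = 0.0011). Overexpression minus knockdown was lower for 8 of the 10 genes, all but Mavs and Irf3, against 9.88% of all genes lower and 4.07% higher. It was -8.13 for Zbp1 (SE 1.83, edgeR, adjusted p = 0.0133) and -5.62 for Dhx58 (SE 1.33, edgeR, adjusted p = 0.0170). For Mb21d1 it was -2.03 (SE 0.316, edgeR, adjusted p = 0.00169), nearly all of it from the overexpression side. For Tmem173 it was -1.22 (SE 0.236, edgeR, adjusted p = 0.00620), from moderate and opposite fold changes in both. Without Egfp_OE replicate 2 the number was 5 of 10, with Ifih1, Tlr3 and Eif2ak2 no longer called and Mavs called higher, and with libraries scaled by spike-in totals it was 2, Dhx58 and Zbp1. The number was 3 without shCtrl replicate 2 or Kitl_OE replicate 1 or 3, and 5 without shCtrl replicate 3, shKitl replicate 2 or Egfp_OE replicate 1. Over all genes, 936 to 1036 were lower in the former of these fits and 1055 to 1461 in the latter. It was 1732 without Egfp_OE replicate 2 and 757 with spike-in totals, against 1509 in the main fit.

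The 2 control lines were set against each other to see how far the derivatives that were not meant to change Kitl differ. Kitl itself was at 72.5, 31.8 and 72.3 CPM in Egfp_OE and at 73.45, 73.6 and 76.4 CPM in shCtrl. Only Egfp_OE replicate 2 was far below shCtrl, and the log2 fold change was -0.34 (SE 0.253, edgeR, adjusted p = 0.414). None of the 10 genes was called in Egfp_OE against shCtrl, where edgeR called 0.511% of all genes higher and 0.74% lower, and 1 of the 10, Tmem173, was higher at an unadjusted p under 0.05, as were 13.8% of all genes. DESeq2 called none of the 10 either. The log2 fold changes were 1.53 for Zbp1 (SE 1.13, edgeR, adjusted p = 0.412) and 1.00 for Dhx58 (SE 0.884, edgeR, adjusted p = 0.493). Without Egfp_OE replicate 2 these were -0.64 and -0.32. For Tmem173 the value was 0.42 (SE 0.166, edgeR, adjusted p = 0.162), and for Mavs -0.36 (SE 0.171, edgeR, adjusted p = 0.218).

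Kitl_OE was also compared with shCtrl, which reuses libraries of the comparisons above. Of the 10 genes 3 were lower, Mb21d1, Ddx58 and Zbp1, against 16.5% of all genes, and none was higher against 15.8%. Mb21d1 fell by 1.75 (SE 0.228, edgeR, adjusted p = 0.000285), and passed in all 25 alternative analyses. Ddx58 fell by 1.58 (SE 0.504, edgeR, adjusted p = 0.0331) and Zbp1 fell by 4.07 (SE 1.35, edgeR, adjusted p = 0.0378). Both calls rested on shCtrl replicate 1, without which the log2 fold changes were -0.68 and -2.30 (edgeR, adjusted p = 0.185 and 0.182). Both also ended without any 1 Kitl_OE library, and that of Zbp1 without shCtrl replicate 2 (edgeR, adjusted p = 0.0523). With the P number as a covariate, the log2 fold changes of Ddx58 and Zbp1 were 0.26 and 0.06, and that of Mb21d1 was still called. The P numbers of shCtrl and Kitl_OE do not overlap, so that this fit extrapolates and cannot separate the P number from the line.

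Across the 12 libraries, 6 of the genes formed a block of like patterns, a grouping read from these values. Among Ddx58, Ifih1, Dhx58, Zbp1, Tlr3 and Eif2ak2, Pearson's r of log2 CPM was 0.856 to 0.99 over the 15 pairs, and 0.915 to 0.99 without Egfp_OE replicate 2. Tmem173 had r of 0.811 to 0.876 with these 6, and Mb21d1 0.512 to 0.73. Mavs had r of -0.717 to -0.395 with them. Irf3 had r of -0.143 to 0.141 with them, but -0.626 to -0.484 without Egfp_OE replicate 2. These values describe 12 libraries that share groups, lines and scaling.

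**Figure D4:**
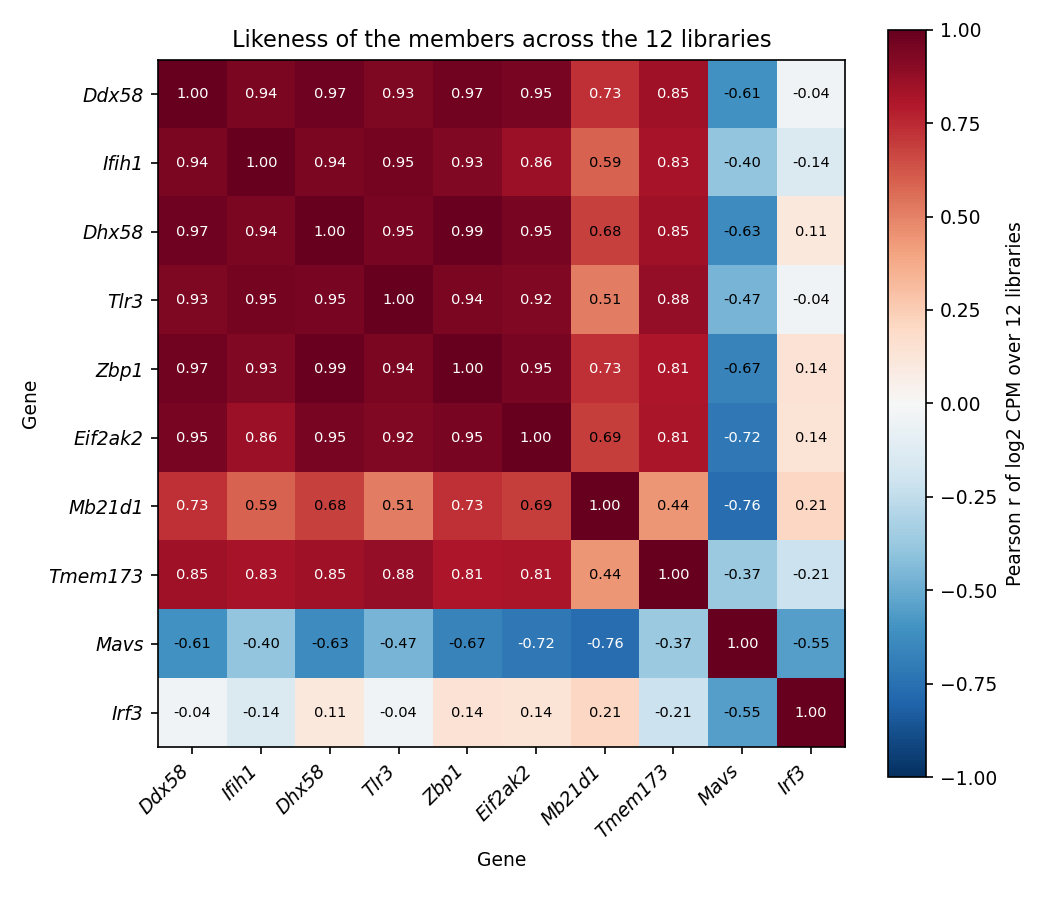
Pearson's r of log2 CPM over the 12 libraries for each pair of the 10 genes, both axes listing the genes and colour running from -1 to 1. The 15 pairs among the first 6 genes are at 0.856 or above, while Mavs is negative with every other gene, though its r of -0.548 with Irf3 is 0.566 without Egfp_OE replicate 2.

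Outside the 10, the genes most like Ddx58 over the 12 libraries were Ifi207 (r = 0.994), AW011738 (r = 0.992) and Oasl2 (r = 0.991). The genes most like Tmem173 were Arl4c (r = 0.947), Trim34a (r = 0.929) and Cgn (r = 0.928). Mavs was most like Rapgef1 (r = 0.985), Vti1a (r = 0.975) and Cdh2 (r = 0.973), and Irf3 most like Ndufb10 (r = 0.966), Timm13 (r = 0.952) and Myg1 (r = 0.952).

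The genes around the sensors were read from lists chosen by function. The list of other nucleic acid sensors also held Nlrp3, Eif2ak1 and Eif2ak3, which are not themselves such sensors. Of its 30 genes, 26 passed the filter on low counts. With Kitl overexpression 8 of these fell and 1 rose, against 18.9% and 15.4% of all genes, and their median log2 fold change was -0.22. The numbers were 7 and 2 without Egfp_OE replicate 2, and 5 and 2 without Egfp_OE replicate 1, with a median of -0.07. Fewer fell without a Kitl_OE library, 3 without replicate 1 or 2 and 4 without replicate 3, and 1 fell with spike-in totals. Without Egfp_OE replicate 3 the median was -0.12. Ddx60, a helicase linked to RIG-I signalling, fell by 3.64 (SE 0.920, edgeR, adjusted p = 0.0106). Ifi203, of the interferon-inducible p200 family, fell by 2.73 (edgeR, adjusted p = 0.0418), and Ifi204 of the same family fell by 1.66 (edgeR, adjusted p = 0.0343). Without Egfp_OE replicate 2 or any 1 Kitl_OE library both calls ended, and that of Ifi203 also without Egfp_OE replicate 1, shCtrl replicate 2 or any 1 shKitl library (edgeR, adjusted p up to 0.190).

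Of 29 tested adaptors, kinases and transcription factors downstream, 5 rose and 5 fell, with a median of 0.26. Of all genes 15.4% rose and 18.9% fell, so that the counts of the list were near the background. For the list they were 3 and 2 without Kitl_OE replicate 1, 1 and 4 without replicate 2, and 2 and 3 without replicate 3. Without Egfp_OE replicate 3 they were 2 and 5, and without shCtrl replicate 1 or 2 they were 3 and 5. Without shKitl replicate 1 they were 3 and 4, and the median was 0.11 without Egfp_OE replicate 2. Irf7, the interferon-induced relative of Irf3, was at 79.3, 754.1 and 19.6 CPM in Egfp_OE and at 7.39, 17.2 and 6.01 CPM in Kitl_OE. It fell by 4.80 (SE 1.37, edgeR, adjusted p = 0.0188), or by 2.26 without Egfp_OE replicate 2, when the call ended, as it did without Kitl_OE replicate 1 or 3 (edgeR, adjusted p up to 0.119). Irf5, another member of that family, was at 4.95, 5.21 and 6.61 CPM in Egfp_OE, at 3.48 to 6.55 CPM in shCtrl and at 4.31 to 7.88 CPM in shKitl. In Kitl_OE it was at 0.545, 0.330 and 0.546 CPM, so that only this line was low, as with Mb21d1. Irf5 fell by 3.55 (SE 0.368, edgeR, adjusted p = 5.12e-05).

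Of 17 tested cofactors of the sensors, 5 fell and 2 rose, against 18.9% and 15.4% of all genes. Their median was -0.51, or -0.25 without Egfp_OE replicate 2. With 1 library left out, 4 to 6 fell and 1 to 3 rose. Gbp5 fell by 5.33 (SE 1.12, edgeR, adjusted p = 0.00401). Zcchc3, a cofactor of cGAS and of the RIG-I-like sensors, fell by 3.75 (SE 0.787, edgeR, adjusted p = 0.00395), and Trim14, which acts at MAVS, fell by 3.56 (SE 0.857, edgeR, adjusted p = 0.00833). Zcchc3 was low in every line, at no more than 2.38 CPM. Of 22 tested genes that limit nucleic acid sensing, 7 fell and 4 rose, against the same shares of all genes, with a median of -0.23. Without Egfp_OE replicate 2 the numbers were 6 and 8, against 3056 and 3094 of all 15622 genes then tested, and the median was -0.10. Enpp1, which breaks down the messenger made by cGAS, was at 10.1, 7.41 and 8.69 CPM in Egfp_OE and at 0.234, 0.293 and 0.376 CPM in Kitl_OE. It fell by 4.83 (SE 0.514, edgeR, adjusted p = 5.99e-05), while shCtrl and shKitl ran from 4.94 to 20.8 CPM. Usp18, which dampens interferon receptor signalling, fell by 4.40 (SE 1.03, edgeR, adjusted p = 0.00730), and Trim30a fell by 3.69 (SE 0.871, edgeR, adjusted p = 0.00754).

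Of 20 interferon-stimulated genes, all tested, 14 fell and 1 rose with Kitl overexpression, against 18.9% and 15.4% of all genes. Their median was -3.40, and without Egfp_OE replicate 2 the numbers were 10 and 0, with a median of -2.21. Ifi44 fell by 6.47 (SE 1.36, edgeR, adjusted p = 0.00391), Oas1a, a synthetase activated by double-stranded RNA, fell by 5.23 (SE 1.07, edgeR, adjusted p = 0.00349), and Mx1 fell by 5.02 (SE 1.26, edgeR, adjusted p = 0.0101). The summed level of the list was 522.5 to 7306 CPM in Egfp_OE and 481.3 to 867.6 CPM in Kitl_OE, which overlap, and 422.3 to 2654 CPM in shCtrl and 4108 to 5406 CPM in shKitl, which do not. In the knockdown edgeR called none of the genes of these lists, or 2 limiters higher without shCtrl replicate 1, and the interferon-stimulated genes had a median of 1.95. DESeq2 called 2 of those 20 higher, and 1 cofactor and 1 limiter. Against shCtrl, Kitl_OE had 10 of the 20 lower and 1 higher, where 16.5% of all genes were lower and 15.8% higher. It had 3 of the 20 lower without shCtrl replicate 1 or Kitl_OE replicate 1, 6 without Kitl_OE replicate 2 and 4 without Kitl_OE replicate 3.

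Interferon transcripts themselves were scarce. Of 15 interferon genes looked for, 9 had no count in any library. Ifnz, which did not pass the filter, had 9, 5 and 3 counts in shCtrl and 2, 14 and 5 in shKitl. In Egfp_OE it had 5, 8 and 3 counts, and in Kitl_OE 1, 4 and 5. Ifna4, also filtered out, had 7 counts or fewer in every library. Ifnb1, the gene of interferon beta that IRF3 switches on, had 1, 2 and 0 counts in the shCtrl libraries and 17, 11 and 8 in those of shKitl. The Egfp_OE libraries had 10, 19 and 0 counts and the Kitl_OE libraries 1, 0 and 1. Summed over a group and set against depth, shKitl was 11.6-fold above shCtrl (exact 95% interval 3.66 to 58.7), and Egfp_OE 13.3-fold above Kitl_OE (3.37 to 115). These intervals cover counting error only, not the spread between libraries, which in Egfp_OE ran from 0 to 19 counts. In edgeR, Ifnb1 had an adjusted p of 0.242 in the knockdown. In Kitl_OE against Egfp_OE it fell by 3.58 (SE 1.26, edgeR, adjusted p = 0.0464), and its log2 fold change was -2.41 without Egfp_OE replicate 2. That call ended in 11 of 12 fits with 1 library left out, all but that without Egfp_OE replicate 3 (edgeR, adjusted p up to 0.165).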

How the data were processed

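PolyA-selected RNA of 12 libraries was sequenced, and the sample titles gave the groups and replicate numbers. The authors deposited raw read counts per gene, made with STAR 2.5.2b and featureCounts (Subread 1.5.2) on GRCm38, per the submitters' processing notes, which also list DESeq2. They also deposited TPM values, which divide by gene length. The annotation release, the strand setting and the source of the gene lengths were not given in the sources used here. Neither library sizes nor tests included the 92 ERCC spike-ins, and 49326 of 49671 gene IDs were found in GENCODE M21.

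Counts were tested with edgeR 4.0.16 in R 4.3.3: filterByExpr by group (15271 genes kept), TMM scaling, and a robust quasi-likelihood fit with 1 coefficient per group over all 12 libraries (biological coefficient of variation 0.292). Benjamini-Hochberg adjustment covered every tested gene, and 0.05 was the threshold. Standard errors were derived from fold changes and F values, and CPM are counts per library size and TMM factor. An exact permutation test of 3 against 3 libraries cannot go below p = 0.1. The chi-square per degree of freedom between libraries of 1 group was at least 18.2, so that no library repeated another within sampling noise. The code was tested on simulated data.

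The 10 genes, the lists and the tests were chosen with earlier results of these data known. Named are all 10 genes, Kitl, up to 3 called genes of each list with the largest absolute fold change, and the 3 genes most like Ddx58, Tmem173, Mavs and Irf3 by Pearson's r of log2 CPM with a prior count of 2. One gene that this rule would name is not reported here. Irf5, Enpp1 and Irf7 levels were added with their values known. Alternatives changed the scaling (DESeq2 size factors, spike-in totals, library totals), the tool (DESeq2 1.42.0, or limma 3.58.1 with voom or on log2 TPM with a pseudocount of 1 or 0.1), the filter (any count, or 5 CPM in 3 libraries), the threshold (0.01) or the model (P number as covariate, replicate number as block, compared groups only), or left out each library. Fits restricted to P numbers shared by both groups (14 and 15, or 18 and 19) were chosen after seeing the data. Sequences came from RefSeq windows of GRCm38.p6.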

Additional observations from a re-analysis of the deposited data

Results flagged for a closer look

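The Kitl_OE against Egfp_OE and shKitl against shCtrl fold changes differed for 8 of the 10 genes, by a test of the difference itself in edgeR's quasi-likelihood model at an adjusted p of 0.05. Kitl itself, which the 2 comparisons change in opposite directions, differed by 2.52 on the log2 scale (edgeR, adjusted p = 0.0011). On the log2 scale, overexpression minus knockdown was -2.94 for Ddx58, -2.50 for Ifih1, -5.62 for Dhx58, -8.13 for Zbp1, -3 for Tlr3, -2.03 for Mb21d1, -1.22 for Tmem173 and -2.07 for Eif2ak2. The P numbers of the hairpin and overexpression lines do not overlap, and with the P number as a covariate 3 of these calls held, those of Zbp1, Mb21d1 and Tmem173. The other 5 had adjusted p-values from 0.0601 to 0.135.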

How the results depend on the processing

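Of 1260 fold changes of the 10 genes under the alternatives, 1086 kept direction and side of the threshold, 111 lost and 18 gained a call, and 45 changed sign; causes were not tested. The Mb21d1 calls held in all 26 alternatives against Egfp_OE and all 25 against shCtrl. Libraries with fewer than 30 counts of a gene, as for Ifnb1 and Zbp1 in Kitl_OE, limit what can be seen there.

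In Kitl_OE against Egfp_OE, the number called higher was 0 with spike-in totals, either TPM pseudocount, an adjusted p of 0.01, only the groups compared, or shared P numbers. The number called lower was 3 with spike-in totals and limma-voom, 2 with the P number as a covariate, and 1 with any count, an adjusted p of 0.01, or shared P numbers. It ran from 2 to 7 with 1 library left out, and the number called higher stayed at 1. Over all genes, 1061 rose and 1290 fell with spike-in totals, 1258 and 1564 at 0.01, and 623 and 659 with shared P numbers, against 2352 and 2884. With library totals 1880 rose and 3279 fell. In the knockdown, DESeq2 called 1 of the 10, and leaving out 1 library gave 0 to 1. In Kitl_OE against shCtrl the number lower was 5 with DESeq2 and 1 with limma-voom, either TPM pseudocount, any count, an adjusted p of 0.01 or the P number. It ran from 1 to 5 with 1 library left out. The number higher was 1 with only the groups compared and 0 to 1 with 1 library left out. For the difference of the comparisons the number lower was 2 with spike-in totals, any count and 0.01, and 3 with the P number. It ran from 3 to 8, and the number higher from 0 to 1, with 1 library left out. In Egfp_OE against shCtrl, DESeq2 called 804 genes higher and 656 lower, and spike-in totals 0 and 10, against 78 and 113.

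Spike-in scaling moved the median of all genes by -0.40 in Egfp_OE against shCtrl, -0.33 in Kitl_OE against shCtrl, -0.11 in the knockdown and 0.18 in the difference. Sign changes in the knockdown were Mavs to 0.0116 with library totals and 0.0166 with the P number, and Mb21d1 to -0.00052 and -0.0021 with TPM pseudocounts of 1 and 0.1. With 1 library left out, Mavs ran from -0.0973 to 0.0267 and Mb21d1 from -0.22 to 0.20. In Kitl_OE against Egfp_OE, Irf3 ran from -0.53 to 0.19 with 1 library left out. In Egfp_OE against shCtrl, spike-in totals gave Ddx58 -0.30, Tlr3 -0.27, Mb21d1 -0.27, Eif2ak2 -0.0288 and Irf3 -0.37, TPM + 0.1 gave Irf3 -0.0012, and the P number gave Ifih1 1.10 and Mb21d1 -0.18. With 1 library left out, Ddx58 ran from -0.13 to 1.16, Ifih1 from -0.47 to 0.48, Dhx58 from -0.32 to 2.33, Zbp1 from -0.64 to 3.29, Tlr3 from -0.0806 to 1.34 and Irf3 from -0.24 to 0.46. In Kitl_OE against shCtrl, Tmem173 was -0.0014 with DESeq2 size factors, -0.0203 with library totals, -0.32 with spike-in totals and -0.0606 and -0.0613 with the TPM pseudocounts, and Mavs -0.0289 with spike-in totals. The P number gave Ddx58 0.26, Ifih1 0.54, Dhx58 0.89, Zbp1 0.0564, Tlr3 1.10 and Eif2ak2 0.38. With 1 library left out, Tlr3 ran from -1.21 to 0.11 and Tmem173 from -0.0752 to 0.21. In the difference, Irf3 was 0.27 with spike-in totals, 0.0244 with limma-voom, 0.0587 and 0.0621 with the TPM pseudocounts, and -0.33 to 0.41 with 1 library left out.

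Same-numbered libraries deviated together with r of -0.259 to 0.527 (shCtrl and shKitl) and 0.026 to 0.204 (Egfp_OE and Kitl_OE). In that order, 3 of 6 and 5 of 6 libraries correlated best with their own number. The main model did not pair libraries, and these values do not settle whether the numbers pair them. Libraries sharing a P number had r of 0.556 (shCtrl replicate 1, shKitl replicate 2) and 0.319 (shCtrl replicate 2, shKitl replicate 3). In the overexpression lines r was -0.002 (Egfp_OE replicate 2, Kitl_OE replicate 1) and -0.176 (Egfp_OE replicate 3, Kitl_OE replicate 2). Pairing by P number was not tested. With the replicate block, 1 of the 10 was higher and 5 lower in Kitl_OE against Egfp_OE, 3 lower against shCtrl, 8 lower in the difference and 0 in the others, as without it. Over all genes, Egfp_OE against shCtrl had 32 higher and 50 lower with the block.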
